A study of Caenorhabditis elegans with 11 samples.

Results

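A mutant and a wild-type form of the transcription factor DAF-16 were compared in whole adults of the nematode Caenorhabditis elegans. In the 2KR line, lysines K248 and K253 of the protein were replaced by arginine, which cannot be acetylated, and in the WT line they were left as they are. Both lines carried the daf-16(mu86) deletion and a GFP-tagged daf-16 transgene under the daf-16 promoter, together with the marker plasmid pRF4, whose mutant rol-6 gene makes worms roll. The WT line held the integrated array iqIs79 and the 2KR line the integrated array iqIs85, with 1 line per transgene, so the effect of the substitutions cannot be told apart from anything else that sets the lines apart. Each line gave 3 of the 11 RNA-seq libraries of the series, and each library came from about 1000 worms on day 1 of adulthood, grown at 20 °C on E. coli OP50. All 13740 genes that passed a filter on low counts, of 47084 listed, were tested and are described here by function and family. N2, the standard laboratory strain with neither the deletion nor a transgene, gave 2 libraries and serves for reference levels.

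DAF-16 is the FOXO factor that insulin signalling holds back: kinases below the insulin receptor phosphorylate it and keep it in the cytoplasm, and once in the nucleus it raises genes of stress resistance, metabolism and longevity. Acetyl groups on lysines near its DNA-binding domain are known to tune FOXO activity in mammals and worms. Most of its known targets are used in the intestine, which in this animal does the work of gut, liver and fat tissue, making yolk, digesting bacteria and storing lipid.

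Of the 13740 genes, 286 (2.08%) differed between the lines in the edgeR quasi-likelihood test with the replicate number as a block, at an adjusted p under 0.05. There were 185 genes higher in 2KR (1.35%) and 101 lower (0.735%). Most differences were small: the median log2 fold change was 0.38 among the higher genes and -0.78 among the lower ones, and 34 genes differed by at least 2-fold, 8 of them higher and 26 lower. All 286 had one sign in the 3 replicates. A test with the replicate as a block favours such genes, so the shared sign is no separate support. For 171 of the 286 the 2 groups of libraries did not overlap, against 10.1% of all genes tested. Of these, 105 were higher and 66 lower, where 5.42% and 4.72% of all genes lay wholly above and wholly below. Total counts were 26154989 to 30810301 in these 6 libraries.

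How many genes passed depended on the block and on which replicate was left out. Without the block, 22 genes passed (5 higher and 17 lower), all of them among the 286. In WT, replicate 2 lay furthest from the other libraries (chi-square per degree of freedom of 12.05 and 10.2 against 7.83 between replicates 1 and 3), and in 2KR, replicate 3 did (15.5 and 18.7 against 12.04 between replicates 1 and 2). Without replicate 2 in both lines, 1104 genes passed, 694 higher and 410 lower, with 282 of the 286 among them. Without replicate 1 there were 140 genes and without replicate 3 there were 80. Leaving out a single library gave 157 genes without WT replicate 1, 1124 without WT replicate 2, 47 without WT replicate 3, 148 without 2KR replicate 1, 1082 without 2KR replicate 2 and 44 without 2KR replicate 3. Of the 286, 37 passed in each of those 6 fits. The fits kept the block, so a library left without its partner hardly bore on the difference between the lines. Each thus came close to leaving out that replicate in both lines, and the 6 are not separate checks of single libraries. The labels' protocol speaks of biological repeats without naming separate cultures, so p-values measure the spread between these libraries, which may in part be technical. RNA came from whole worms, so fewer cells of a type and less RNA per cell cannot be told apart in any result that follows.

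**Figure D1:**
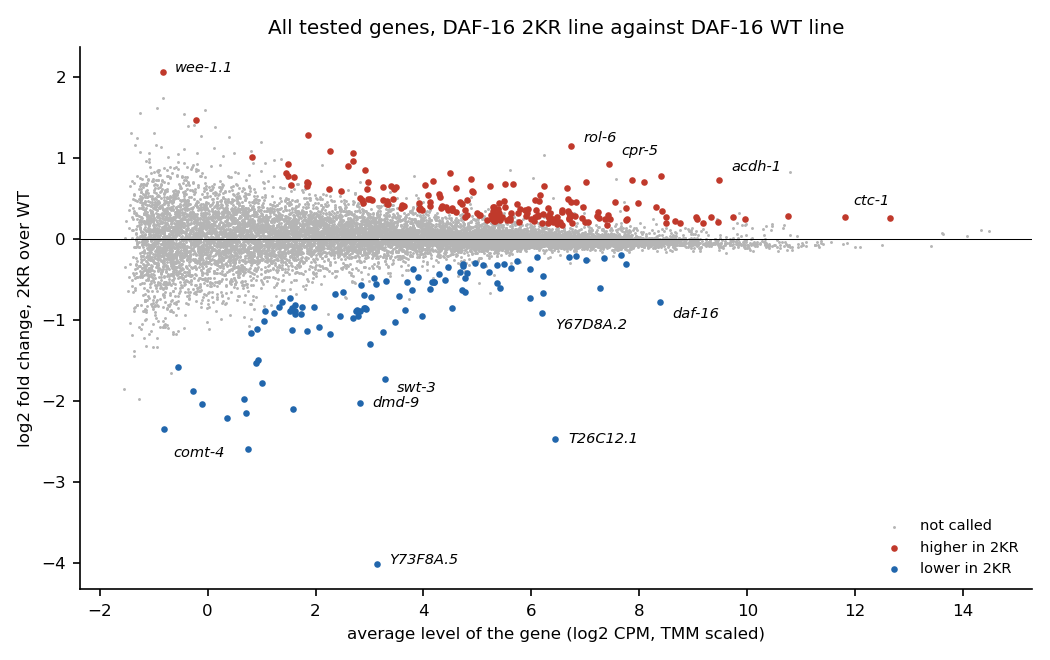
Log2 fold change of 2KR over WT against the average level of each gene (log2 CPM, counts scaled to library size by TMM), 1 point per gene tested, with genes called at an adjusted p under 0.05 in colour. The called genes lie near the centre line, with a few lower genes such as Y73F8A.5 and T26C12.1 far from it. Y67D8A.9, with no count in any WT library, is not drawn.

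The daf-16 transcript itself was lower in 2KR. It stood at 401, 454 and 402 CPM in WT replicates 1 to 3 and at 214, 289 and 239 CPM in 2KR, with no overlap (log2 fold change -0.77 ± 0.05 SE, adjusted p = 7.8e-05). Reads over the whole gene (WBGene00000912, chromosome I 10750498 to 10776703 of WBcel235) do not separate the transgene from what the deletion leaves. The marker collagen gene rol-6 (WBGene00004397, chromosome II 8733050 to 8734239) went the other way, from 58.0, 73.5 and 66.9 CPM in WT to 123, 164 and 156 CPM in 2KR (1.15 ± 0.04 SE, adjusted p = 1.5e-06). Both genes passed without the block (adjusted p = 0.0453 for daf-16 and 0.0126 for rol-6). The daf-16 transcript level thus differed between the lines beside the coded protein, and its part in the results that follow was not tested.

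Genes known to be raised by active DAF-16 leaned lower in 2KR. Of 31 such genes tested, 5 were lower and none was higher, and 28 had a negative fold change, with a list median of -0.17 against 0.00 over all genes. The secreted-protein gene dod-3, named for its place downstream of DAF-16, was at 15.5, 9.79 and 14.2 CPM in WT and at 6.55, 5.78 and 5.40 CPM in 2KR (-1.14 ± 0.12 SE, adjusted p = 0.00249). The metallothionein mtl-1, which binds heavy metals, was at 19.02, 20.1 and 22.4 CPM in WT and at 7.82, 12.27 and 12.24 CPM in 2KR (-0.95 ± 0.10 SE, adjusted p = 0.00289). In both genes every 2KR library lay below every WT library.

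The long non-coding RNA tts-1, which binds ribosomes in long-lived daf-2 mutants, was at 89.3, 86.4 and 96.7 CPM in WT and at 47.7, 59.9 and 66.1 CPM in 2KR (-0.66 ± 0.07 SE, adjusted p = 0.00222). The mitochondrial nicotinamide nucleotide transhydrogenase nnt-1, which makes NADPH, was at 6.96, 6.36 and 7.26 CPM in WT and at 4.29, 4.25 and 4.60 CPM in 2KR (-0.65 ± 0.11 SE, adjusted p = 0.0175). C08E8.4 was the remaining called member (-0.89 ± 0.17 SE, adjusted p = 0.0364). None of the 3 overlapped between the lines. The best-known reporters of the factor did not pass: the manganese superoxide dismutase sod-3 had a log2 fold change of -0.41 ± 0.13 SE (adjusted p = 0.203) and the chaperone gene hsp-12.6, of the small heat shock family, one of -1.17 ± 0.29 SE (adjusted p = 0.0891). The transcription factor gene mdl-1, a DAF-16 target outside the list that was picked after its value was seen, was lower in 2KR (-0.65 ± 0.10 SE, adjusted p = 0.0152). However, its WT replicate 2, at 19.4 CPM, lay below 2 of the 3 2KR libraries. No member of the list passed without the block, and without replicate 2, 11 members were lower and 1 was higher. There were 3 lower without replicate 3, and 1 without WT replicate 3 or without 2KR replicate 3, where dod-3 was lost (adjusted p = 0.0581 and 0.0608).

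**Figure D2:**
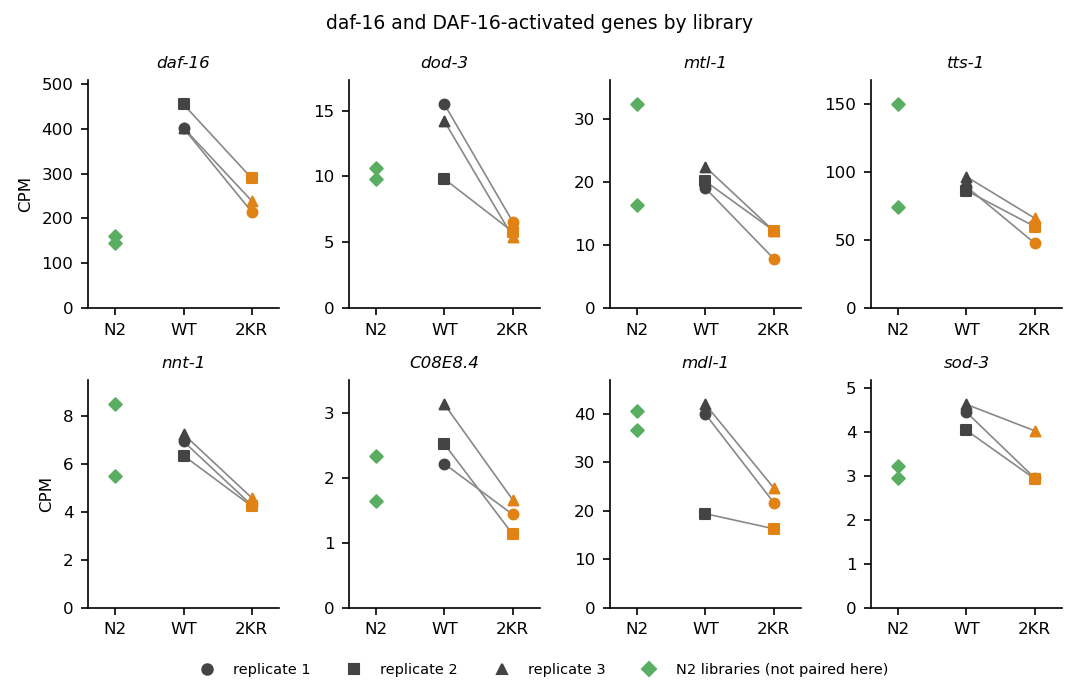
CPM of daf-16 and of 7 DAF-16-activated genes in each library, with lines joining the WT and 2KR libraries of a replicate and diamonds for the 2 N2 libraries. Every line falls from WT to 2KR, including those of sod-3, which did not pass the test, and the spread between the N2 libraries is wide for tts-1 and mtl-1.

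Genes known to be lowered by DAF-16 gave 1 call in each direction. Of 11 tested, 18.2% were called, beside 2.08% over all genes, and 8 had a positive fold change, with a list median of 0.08. The intestinal peptide transporter pept-1 was higher in 2KR and the CUB-domain immunity gene dod-22 was lower. pept-1 was at 79.7, 104 and 72.3 CPM in WT and at 121, 119 and 119 CPM in 2KR (0.50 ± 0.08 SE, adjusted p = 0.0168), while dod-22 was at 4.14, 3.13 and 4.55 CPM in WT and at 2.09, 1.87 and 2.24 CPM in 2KR (-0.92 ± 0.14 SE, adjusted p = 0.0133). Without replicate 2, 3 of the 11 were higher and 1 was lower, and none passed without replicate 3 or without the block. Among 29 components and regulators of insulin signalling, 1 passed (3.45%, beside 2.08% over all genes). It was pqm-1, a zinc finger factor that works in opposition to DAF-16 on many targets, at 19.6, 11.7 and 20.8 CPM in WT and 12.83, 9.15 and 15.5 CPM in 2KR, lower within each replicate but with overlap between the lines (-0.47 ± 0.08 SE, adjusted p = 0.0188). None of 15 insulin-like peptide genes and none of 21 genes of lysine acetyltransferases and deacetylases was called. At the 2.08% called over all genes, lists so short would mostly hold no call. The acetyltransferase cbp-1 differed by 0.05 ± 0.03 SE (adjusted p = 0.569).

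A metabolic group with every member higher was the propionate shunt, the route by which worms burn propionate when vitamin B12 is short. All 5 of its enzymes were higher in 2KR, with a median log2 fold change of 0.38; the set was put together after the values of its members were seen. acdh-1, the acyl-CoA dehydrogenase of its first step, was at 413, 903 and 342 CPM in WT and at 760, 1212 and 644 CPM in 2KR (0.74 ± 0.08 SE, adjusted p = 0.00289). hphd-1, which oxidises 3-hydroxypropionate, was at 175, 304.02 and 147 CPM in WT and at 296, 449 and 255 CPM in 2KR (0.70 ± 0.05 SE, adjusted p = 1.3e-04). For both, 2KR was higher in each replicate, while replicate 2 was high in both lines, so that the groups overlapped.

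The hydratase ech-6 differed by 0.35 ± 0.04 SE (adjusted p = 0.00239), the hydrolase hach-1 by 0.38 ± 0.03 SE (adjusted p = 0.00106) and the semialdehyde dehydrogenase alh-8 by 0.28 ± 0.03 SE (adjusted p = 0.00419). dhgd-1, the 2-hydroxyglutarate dehydrogenase that works together with hphd-1, was 0.25 ± 0.03 SE higher (adjusted p = 0.0068). None of these 6 genes passed without the block (adjusted p = 0.834 to 0.984). acdh-1 and alh-8 were also lost without WT replicate 3 (adjusted p = 0.0651 and 0.0601) or without 2KR replicate 3 (adjusted p = 0.0758 and 0.0642), as was dhgd-1 (adjusted p = 0.0712 and 0.0753). The parallel route through methylmalonyl-CoA, which needs vitamin B12, showed no call among its 5 genes, with pcca-1 at -0.03 ± 0.04 SE, pccb-1 at 0.03 ± 0.04 SE, mce-1 at -0.01 ± 0.05 SE, mmcm-1 at -0.02 ± 0.05 SE and mmaa-1 at 0.09 ± 0.04 SE. Of the nuclear receptors tied to the shunt, nhr-10 differed by -0.02 ± 0.06 SE (adjusted p = 0.93) and nhr-68 by 0.26 ± 0.06 SE (adjusted p = 0.0792).

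Of 9 genes of the methionine cycle and phosphatidylcholine synthesis, a set also put together after values were seen, 2 were higher and none lower, with a median of 0.05. sams-1, which makes the methyl donor S-adenosylmethionine, was at 267, 315 and 239 CPM in WT and at 338, 397 and 342 CPM in 2KR, with no overlap (0.40 ± 0.04 SE, adjusted p = 0.00239). Outside the set, the folate transporter gene folt-2 was at 224, 362 and 175 CPM in WT and at 421, 532 and 324 CPM in 2KR (0.78 ± 0.06 SE, adjusted p = 6.6e-04). pmt-2, a methyltransferase that spends S-adenosylmethionine on phosphatidylcholine synthesis, was higher (0.28 ± 0.05 SE, adjusted p = 0.0224), and so was, outside the set, nhr-114, a nuclear receptor known to respond to low vitamin B12, from 26.4, 67.2 and 26.2 CPM to 38.6, 81.5 and 34.8 CPM (0.40 ± 0.06 SE, adjusted p = 0.0102). None of these 4 genes passed without the block (adjusted p = 0.443 to 0.984), and pmt-2 and nhr-114 were lost without replicate 3 (adjusted p = 0.182 and 0.0752). The methionine synthase metr-1 (0.05 ± 0.04 SE), the other phosphatidylcholine methyltransferase pmt-1 (0.07) and the other S-adenosylmethionine synthetases sams-3 and sams-4 (-0.01 ± 0.03 SE and 0.02 ± 0.03 SE) were not called. In the list of 29 genes of the glyoxylate cycle, gluconeogenesis and the methionine cycle, 3 were higher and none lower (10.3%, beside 2.08% over all genes). They were sams-1, the glycine decarboxylase gldc-1 (0.46 ± 0.05 SE, adjusted p = 0.00208) and the phosphoenolpyruvate carboxykinase pck-2 (0.21 ± 0.04 SE, adjusted p = 0.0476).

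Among the higher genes were 8 enzymes of amino acid or nucleotide metabolism, picked after their values were seen and with no list behind them. In amino acid metabolism they were the branched-chain aminotransferase bcat-1 (0.29 ± 0.04 SE, adjusted p = 0.00672), the lysine-degrading aass-1 (0.21 ± 0.04 SE, adjusted p = 0.0332), the kynureninase flu-2 (0.26 ± 0.04 SE, adjusted p = 0.00846) and the phenylalanine hydroxylase pah-1 (0.20 ± 0.04 SE, adjusted p = 0.0309). In nucleotide metabolism they were the pyrimidine-degrading dpyd-1 (0.31 ± 0.04 SE, adjusted p = 0.00536), the purine salvage enzyme hprt-1 (0.28 ± 0.04 SE, adjusted p = 0.0144) and the purine synthesis enzymes atic-1 (0.35 ± 0.07 SE, adjusted p = 0.032) and pfas-1 (0.23 ± 0.05 SE, adjusted p = 0.0423). None of the 8 passed without the block (adjusted p = 0.136 to 0.882), and without replicate 3 only bcat-1 (adjusted p = 0.0433) and dpyd-1 (adjusted p = 0.0418) did.

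**Figure D3:**
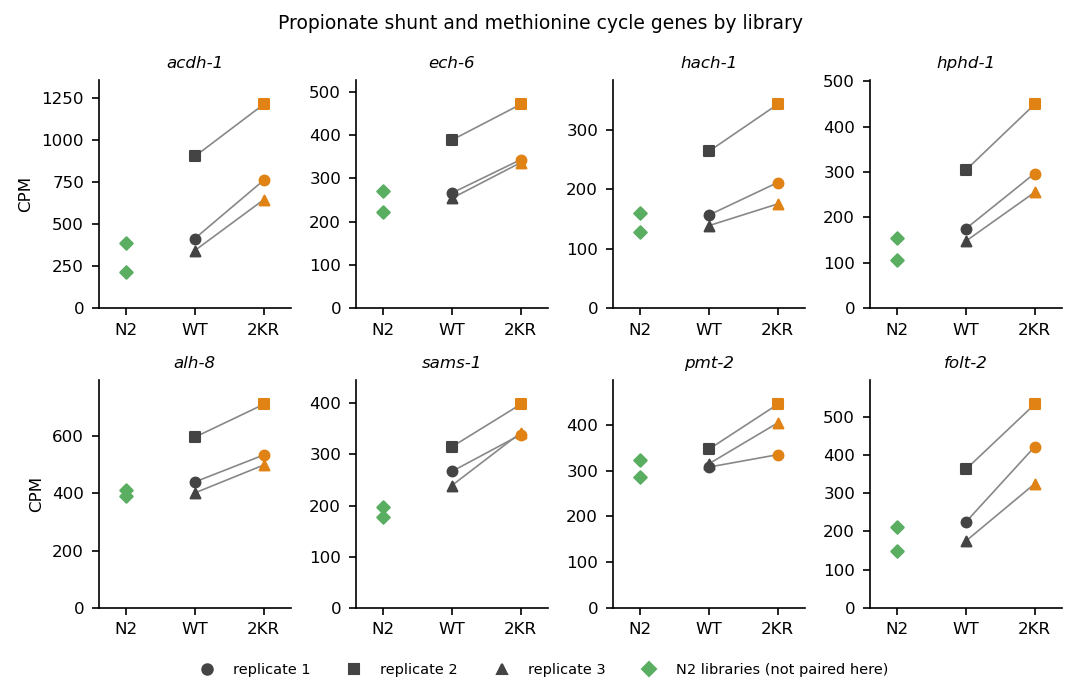
CPM of the 5 propionate shunt genes acdh-1, ech-6, hach-1, hphd-1 and alh-8, and of sams-1, pmt-2 and folt-2, in each library, with lines joining the WT and 2KR libraries of a replicate and diamonds for N2. Every line rises from WT to 2KR, and the squares of replicate 2 lie above the other replicates of the same line.

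Called genes of beta-oxidation and of fatty acid elongation were all higher in 2KR. Of 41 genes of peroxisomal and mitochondrial beta-oxidation, which shortens fatty acids, 6 were higher and none lower. That is 14.6% called, beside 2.08% over all genes, with 31 positive and a list median of 0.08. Of the 6, 3 were acdh-1, ech-6 and hphd-1 of the shunt. The peroxisomal acyl-CoA oxidase acox-2, of the ascaroside pheromone pathway, was at 11.5, 14.2 and 12.05 CPM in WT and at 18.5, 20.4 and 21.3 CPM in 2KR, with no overlap (0.68 ± 0.08 SE, adjusted p = 0.00382). acdh-2, a relative of acdh-1, was at 16.35, 38.3 and 13.3 CPM in WT and 31.6, 51.2 and 25.9 CPM in 2KR (0.75 ± 0.10 SE, adjusted p = 0.00787), and the carnitine palmitoyltransferase cpt-5 was 0.34 ± 0.07 SE higher (adjusted p = 0.0419). The 6 became 12 higher and 1 lower without replicate 2, 4 higher without replicate 3, 2 without either replicate 3 library alone, and 0 without the block.

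Of 18 fatty acid desaturases and elongases, 3 elongases (16.7% of the list, beside 2.08% called over all genes) were higher and none was lower. elo-5 and elo-6, which make branched-chain fatty acids and lie near each other on chromosome IV, differed by 0.46 ± 0.09 SE (adjusted p = 0.0388) and 0.44 ± 0.08 SE (adjusted p = 0.0242), and elo-2, the palmitate elongase, by 0.30 ± 0.06 SE (adjusted p = 0.0372). None of the 3 passed without replicate 1, without replicate 3 or without the block, and 6 members were higher without replicate 2. The desaturases fat-6 and fat-7, which make oleate, did not pass (0.01 and 0.20). Of 20 acyl-CoA synthetases, which activate fatty acids, acs-17 was lower (-0.42 ± 0.08 SE, adjusted p = 0.0275) and none was higher. Of 25 lipase and lipid droplet genes, the fatty acid binding protein gene lbp-2 was higher (0.17 ± 0.03 SE, adjusted p = 0.0361) and none was lower. The single calls acs-17 and lbp-2 are 5% and 4% of their lists, beside 2.08% over all genes. Among 6 yolk protein genes, vit-1 was higher, from 6198, 5758 and 5544 CPM to 7141, 6765 and 7134 CPM with no overlap (0.27 ± 0.05 SE, adjusted p = 0.0206); the other 5 had positive values between 0.05 and 0.11 that did not pass.

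Digestive proteases leaned higher, with 4 of 27 higher, 1 lower, 20 positive and a median of 0.17. The share called was 18.5%, beside 2.08% over all genes. The gut cysteine protease cpr-5 (chromosome V 1132598 to 1134036) was at 127, 112 and 117 CPM in WT and at 234, 229 and 216 CPM in 2KR. The lines were far apart (0.94 ± 0.04 SE, adjusted p = 5.2e-06), and cpr-5 passed in each of the 17 alternative fits. Its neighbour cpr-8 was at 10.03, 7.004 and 8.49 CPM in WT and 14.3, 10.7 and 14.2 CPM in 2KR (0.62 ± 0.09 SE, adjusted p = 0.0094), cpr-4 at 58.1, 59.5 and 58.9 CPM against 85.95, 70.5 and 90.6 CPM (0.48 ± 0.07 SE, adjusted p = 0.00829). The aspartyl protease asp-13 was 0.34 ± 0.05 SE higher (adjusted p = 0.00758) with overlap between the lines, and asp-14 was lower, from 79.6, 89.3 and 86.7 CPM to 52.2, 68.8 and 66.2 CPM (-0.46 ± 0.05 SE, adjusted p = 0.00289). Without replicate 2, 14 of the 27 were higher and 1 was lower, while without replicate 3, 1 was higher and 1 lower, and without the block cpr-5 alone passed.

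Solute carriers and sugar or amino acid transporters, a family taken by gene name, gave 6 higher and 1 lower of 110. The share called was 6.36%, beside 2.08% over all genes. Beside pept-1 they were the ammonium transporters amt-4 and rhr-1, the monocarboxylate transporter relatives mct-3 and mct-4, the sodium-coupled carrier slc-5A12 and the sugar transporter swt-3. amt-4 was at 14.3, 19.1 and 15.5 CPM in WT and at 25.3, 29.3 and 31.6 CPM in 2KR with no overlap (0.82 ± 0.08 SE, adjusted p = 0.00213), and rhr-1, an Rh-type channel, was 0.29 ± 0.05 SE higher (adjusted p = 0.019). swt-3 was the lower one, at 20.2, 7.08 and 17.8 CPM in WT against 3.73, 5.31 and 3.91 CPM in 2KR (-1.73 ± 0.30 SE, adjusted p = 0.0223), a difference that was small in replicate 2 and was lost without replicate 3 (adjusted p = 0.224) and with DESeq2 (adjusted p = 0.199). Of 37 intestinal transport and brush border genes, 3 were called (8.11%, beside 2.08% over all genes). Higher were pept-1 and the second metallothionein mtl-2 (0.34 ± 0.07 SE, adjusted p = 0.0395), and swt-3 was lower. None of these 3 passed without replicate 3 or without the block. Of the 110 transporters, 13 were higher and 5 lower without replicate 2, and 1 was higher without replicate 3. mtl-2 thus stood higher in 2KR where mtl-1 stood lower.

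Intestine markers differed in the same direction. Of 10 intestine markers, 9 were matched by gene name, all with counts, and the called gene pept-1 was not among the 9. The summed level of the 9 was 41491 to 44433 CPM in WT and 45141 to 47858 CPM in 2KR, without overlap. The 9 hold the yolk genes vit-2 and vit-6, and a sum follows its most abundant members, so it need not reflect the other markers. None of the 9 was called alone, and 7 had a positive fold change (median 0.11). The part of this shift in the results on gut genes was not tested. Summed muscle markers were 2069 to 2766 CPM in WT and 1934 to 2864 CPM in 2KR, neuron markers 243 to 281 and 236 to 277 CPM, germline markers 2777 to 2934 and 2679 to 2856 CPM, oocyte markers 9510 to 9731 and 8465 to 9553 CPM, and sperm markers 9.71 to 24.001 and 10.7 to 16.8 CPM, overlapping in each case.

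Genes of defence went both ways. Of 31 genes of the PMK-1 pathway, the p38 kinase cascade of intestinal immunity, 3 were higher and 5 lower. That is a share of 25.8%, beside 2.08% over all genes. irg-5, raised by bacterial infection, was at 1.15, 3.35 and 1.80 CPM in WT and at 3.27, 6.19 and 5.50 CPM in 2KR (1.28 ± 0.17 SE, adjusted p = 0.00735), and irg-8 and sysm-1 were higher by 0.33 ± 0.05 SE (adjusted p = 0.014) and 0.41 ± 0.07 SE (adjusted p = 0.0254). Lower were dod-22, the ion pump gene catp-3 (-0.87 ± 0.14 SE, adjusted p = 0.0146), C17H12.8 (-0.41 ± 0.08 SE, adjusted p = 0.0318), the lysozyme lys-2 (-0.37 ± 0.06 SE, adjusted p = 0.0149) and the bZIP factor zip-2 (-0.21 ± 0.04 SE, adjusted p = 0.0295). The kinases themselves were not called, with pmk-1 at -0.02. Of 24 lysozymes and saposin-like proteins, spp-2 and lys-2 were lower (8.33%, beside 2.08% over all genes) and none was higher. Without replicate 2, by contrast, 7 lysozymes and saposin-like proteins were higher and 2 lower. Of the PMK-1 list, 1 gene passed without replicate 3 and none without the block. None of 19 genes of the intracellular pathogen response was called, where 2.08% of all genes were.

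Antimicrobial peptides of the epidermis gave 5 lower and none higher of 23 (21.7%, beside 2.08% over all genes), with a list median of 0.01. fipr-22 was at 5.55, 1.73 and 6.98 CPM in WT and at 1.08, 0.805 and 1.34 CPM in 2KR (-2.1002 ± 0.22 SE, adjusted p = 0.00239). Its near neighbours on chromosome I, fipr-23 (-2.21 ± 0.31 SE, adjusted p = 0.00976) and fipr-24 (-2.04 ± 0.27 SE, adjusted p = 0.00718), are alike in sequence and may share reads. nlp-29, which wounding and fungal infection raise, was at 11.9, 5.23 and 11.42 CPM in WT and 5.43, 3.88 and 6.30 CPM in 2KR (-0.84 ± 0.13 SE, adjusted p = 0.0146), and cnc-4 was lower by a larger fold (-1.53 ± 0.30 SE, adjusted p = 0.0358). For cnc-4 the lines overlapped, and replicate 2 hardly differed, at 0.753 CPM in WT and 0.732 CPM in 2KR. WT replicate 2 was the lowest WT library for these 5 genes. All 5 were lost without replicate 3 (adjusted p = 0.0518 to 0.325), and fipr-22 to fipr-24 were all under 10 CPM.

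Cuticle collagens were higher where they passed, 7 of 122 (5.74%, beside 2.08% over all genes). There were 88 positive values (72.1%, beside 50.7% of all genes) and a family median of 0.13. Of the 7, 1 was rol-6, which the plasmid carries. The rest differed by 0.20 to 0.28, namely col-92, col-93, col-94, col-143, col-160 and col-179. The adjacent genes col-92, col-93 and col-94 (chromosome III 10982139 to 10987873) moved alike, col-93 from 806, 777 and 715 CPM to 907, 1008 and 878 CPM (0.28 ± 0.04 SE, adjusted p = 0.0149), and such related genes may share reads. phy-2, a prolyl 4-hydroxylase that modifies collagen, was 0.38 ± 0.08 SE higher (adjusted p = 0.0423). The summed level of 8 epidermis markers was 1073 to 1148 CPM in WT and 1250 to 1392 CPM in 2KR, and without rol-6 it was 998 to 1091 CPM and 1129 to 1237 CPM. Its part in the collagen values was not tested. Without replicate 2, 30 collagens were higher and 7 lower, without replicate 1 there were 12 higher, without replicate 3 there were 2, and without the block rol-6 alone passed.

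UDP-glucuronosyltransferases, which attach sugars to toxins and lipids, gave 7 higher and none lower of 57. ugt-53 was at 4.96, 5.31 and 5.46 CPM in WT and 9.59, 11.5 and 7.60 CPM in 2KR (0.85 ± 0.13 SE, adjusted p = 0.0131), and ugt-63 at 16.06, 22.7 and 18.01 CPM against 26.2, 30.4 and 31.2 CPM (0.64 ± 0.08 SE, adjusted p = 0.00516), both without overlap. ugt-48 and ugt-12 followed (0.65 ± 0.10 SE, adjusted p = 0.0154, and 0.30 ± 0.05 SE, adjusted p = 0.019). Without replicate 2 the family had 12 higher and 6 lower, without replicate 1 it had 2 higher, without replicate 3 it had 1, and without the block none. Of other detoxification families, 1 of 55 cytochromes P450 was higher and 1 of 35 glutathione S-transferases was lower (cyp-13A2 and gst-20). Those are shares of 1.82% and 2.86%, near the 2.08% over all genes. Of the 5 flavin monooxygenases, fmo-2, a target of hypoxia and fasting signals, was lower, from 3.22, 0.678 and 3.81 CPM to 0.393, 0.220 and 1.16 CPM (-2.14 ± 0.28 SE, adjusted p = 0.00635). With 0.220 CPM in 2KR replicate 2, fmo-2 passed the count filter only through WT, the line where it is high. Another member, fmo-3, was higher (0.48 ± 0.10 SE, adjusted p = 0.0431). The methionine sulfoxide reductase msra-1, which repairs oxidised proteins, rose from 25.2, 62.3 and 26.3 CPM to 37.8, 110 and 40.2 CPM (0.69 ± 0.06 SE, adjusted p = 7.1e-04). With nnt-1, lower, it made up the calls among 27 redox genes (7.41%, beside 2.08% over all genes).

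C-type lectins, secreted carbohydrate-binding proteins, gave 7 higher and 2 lower of 91 (9.89%, beside 2.08% over all genes). clec-10, clec-66, clec-186 and clec-265 were among the higher ones (0.32 to 0.64). clec-47 was also higher, at 0.592, 4.63 and 0.458 CPM in WT and 1.01, 9.19 and 0.833 CPM in 2KR (0.93 ± 0.16 SE, adjusted p = 0.0219). Most of its reads came from replicate 2, and it was not called without that replicate (adjusted p = 0.162). clec-52 was lower, from 5.81, 10.4 and 5.604 CPM to 2.91, 4.32 and 3.87 CPM (-0.94 ± 0.15 SE, adjusted p = 0.0147). Without replicate 2 the family had 21 higher and 2 lower, without replicate 1 it had 2 higher and 1 lower, and without replicate 3 it had 1 lower.

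Of 195 F-box genes of the fbxa, fbxb and fbxc families, which supply substrate receptors of ubiquitin ligases, 4 were higher and 1 lower. That is a share of 2.56%, near the 2.08% over all genes. Of the 4, 3 (fbxa-191, fbxa-192 and fbxa-193) are neighbours on chromosome V (17637982 to 17655281), and the annotation calls fbxa-191 and fbxa-193 pseudogenes. fbxa-192 was at 4.14, 3.09 and 5.08 CPM in WT and 8.64, 8.82 and 8.29 CPM in 2KR (1.07 ± 0.15 SE, adjusted p = 0.00834), against 24.8 and 24.3 CPM in N2. fbxc-43 was lower, from 6.25, 7.49 and 6.13 CPM to 2.65, 3.37 and 2.82 CPM (-1.17 ± 0.12 SE, adjusted p = 0.00206), against 1.73 and 1.96 CPM in N2. Without the block fbxc-43 alone passed, and without replicate 3 there were 2 higher and 1 lower. Of 177 nuclear hormone receptors, nhr-114 and nhr-28 (0.49 ± 0.10 SE, adjusted p = 0.0372) were higher, a share of 1.13% beside 2.08% over all genes.

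**Figure D4:**
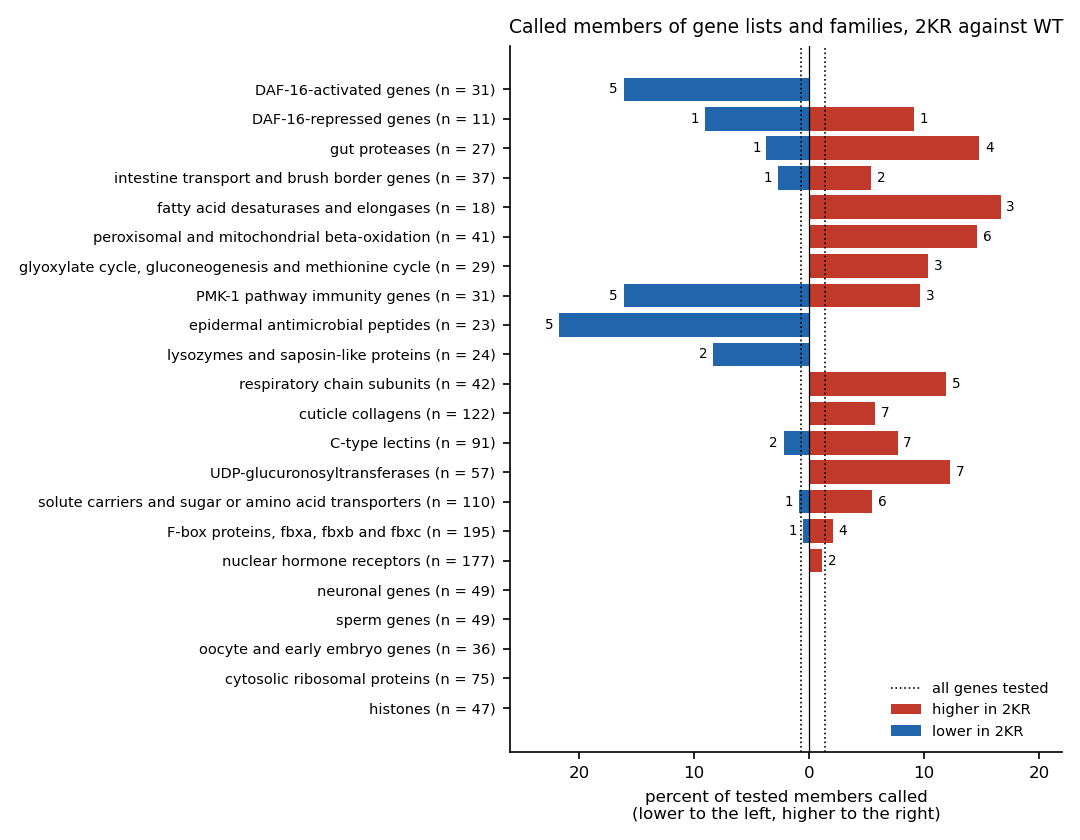
Percent of the tested members of 22 gene lists and families that were called higher (right) or lower (left) in 2KR, with the number of called members at the bar end and dotted lines at the shares over all genes tested (1.35% higher and 0.735% lower). DAF-16-activated genes, epidermal antimicrobial peptides and lysozymes have bars to the left alone, while fatty acid, glyoxylate, respiratory chain, collagen, UDP-glucuronosyltransferase and nuclear receptor genes have bars to the right alone.

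Of 14 genes of the mitochondrial genome tested, 5 (35.7%) were called, all higher, beside 2.08% called over all genes. Positive values were found for 13, beside 50.7% of all genes, while nduo-1 stood at -0.12. The cytochrome oxidase subunit ctc-3 was at 1489, 1444 and 1702 CPM in WT and at 1740, 1709 and 2214 CPM in 2KR (0.28 ± 0.04 SE, adjusted p = 0.0123). ctc-1, ctc-2, nduo-4 and nduo-5 differed by 0.20 to 0.27, and ctc-3, nduo-4, ctc-1 and ctc-2 are neighbours. These 5 genes were the calls among 42 respiratory chain genes, so that no nuclear gene of the list was called. All 5 were lost without replicate 3 (adjusted p = 0.0882 to 0.196) and without the block (adjusted p = 0.443 to 0.919).

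Y73F8A.5 had the lowest fold change among the called genes. The gene (chromosome IV 15259868 to 15269060) was at 19.2, 12.99 and 17.4 CPM in WT and at 0.851, 0.989 and 1.23 CPM in 2KR (-4.02 ± 0.15 SE, adjusted p = 2.4e-06). N2 stood at 0.747 and 0.580 CPM, near the 2KR libraries. comt-4, of the catechol-O-methyltransferase family, came next, at 3.63, 1.24 and 3.52 CPM in WT and 0.327, 0.439 and 0.616 CPM in 2KR (-2.58 ± 0.30 SE, adjusted p = 0.00365). It was lost without replicate 3 (adjusted p = 0.057) and without the block (adjusted p = 0.122). With 10, 12 and 17 counts in its 2KR libraries, comt-4 passed the count filter only through WT, the line where it is high. T26C12.1, which codes for a predicted thiamine pyrophosphate-binding enzyme (chromosome IV 3258910 to 3263489), was at 158.01, 144 and 141 CPM in WT and at 27.6, 25.1 and 27.5 CPM in 2KR (-2.47 ± 0.05 SE, adjusted p = 1.2e-08). N2 stood at 153 and 136 CPM, near the WT libraries.

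T26C12.1 is next to dmd-9, of the doublesex and mab-3 family of transcription factors, which was at 10.9, 12.58 and 10.6 CPM in WT and 2.91, 2.75 and 2.68 CPM in 2KR (-2.02 ± 0.11 SE, adjusted p = 3.8e-05). Beside dmd-9 lies Y67D8A.2 (3222440 to 3252604), at 103.5, 88.2 and 95.6 CPM in WT and 53.1, 48.4 and 51.7 CPM in 2KR (-0.91 ± 0.04 SE, adjusted p = 5.4e-06). Within it the annotation places the non-coding RNA Y67D8A.9, with no count in the 3 WT and the 2 N2 libraries and 17, 17 and 15 counts in 2KR (adjusted p = 0.0102, and 0.0506 without replicate 3). Y67D8A.9 was tested only because its 2KR counts met the count filter. All 4 passed without the block as well, and no library of one line overlapped with the other. T05A12.4, elsewhere on chromosome IV, was lower by 0.72 on the log2 scale (-0.72 ± 0.04 SE, adjusted p = 7.4e-05).

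**Figure D5:**
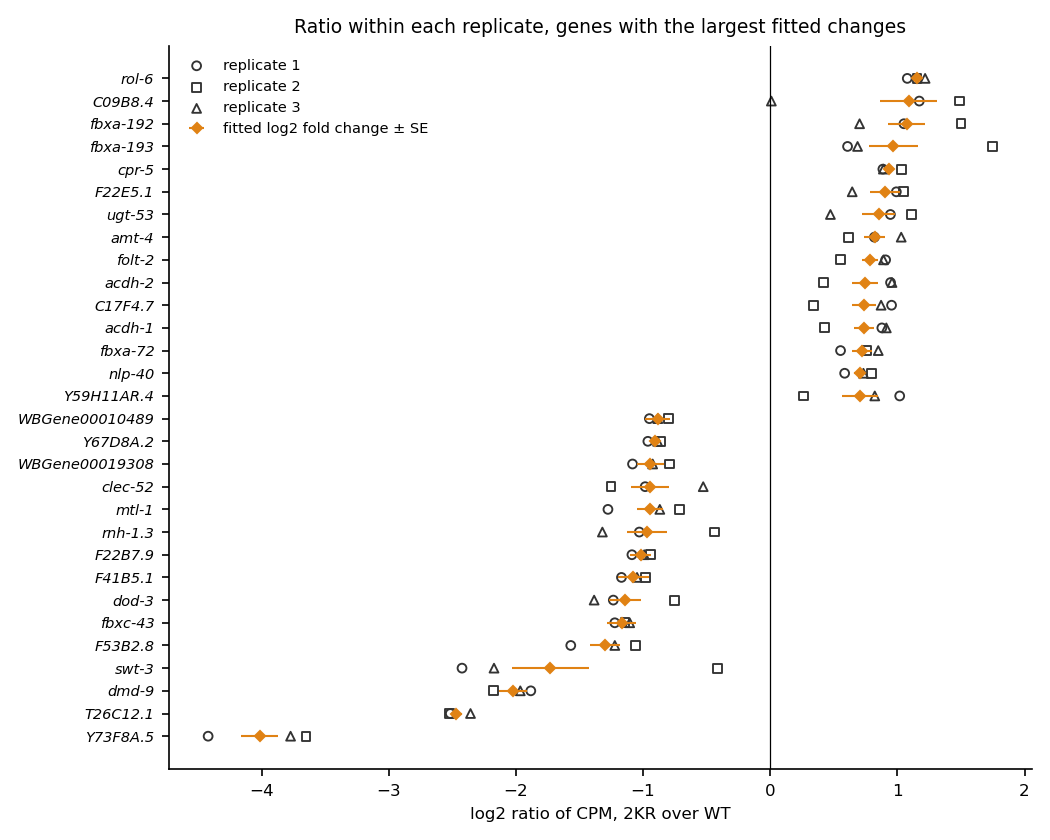
Log2 ratio of CPM of 2KR over WT within replicates 1, 2 and 3 (open symbols) and the fitted log2 fold change with its SE (diamonds) for the 15 highest and 15 lowest called genes that averaged 2 or more on the log2 CPM scale. The symbols lie close together for rol-6, cpr-5, T26C12.1 and Y67D8A.2 and far apart for swt-3, C09B8.4 and fbxa-193.

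Below 1 CPM, the kinase gene wee-1.1 was higher in 2KR, at 0.222, 0.151 and 0.176 CPM in WT and 0.753, 0.842 and 0.760 CPM in 2KR (2.07 ± 0.33 SE, adjusted p = 0.0154), and was lost without replicate 3 (adjusted p = 0.112). With 6, 4 and 5 counts in its WT libraries, it passed the count filter only through 2KR, the line where it is high. Among called genes averaging 2 or more on the log2 CPM scale, the 15 highest also held nlp-40, C09B8.4, F22E5.1, C17F4.7 and Y59H11AR.4. nlp-40, an intestinal peptide that times defecation, was at 90.7, 112 and 91.1 CPM in WT and 136, 194 and 151 CPM in 2KR with no overlap (0.71 ± 0.04 SE, adjusted p = 7.8e-05). C09B8.4 rested on replicates 1 and 2, since replicate 3 had 1.73 CPM in WT and 1.74 CPM in 2KR (1.09 ± 0.22 SE, adjusted p = 0.0444), and it was lost without replicate 1 (adjusted p = 0.135). The heat shock genes F44E5.4 and F44E5.5, a near-identical pair on chromosome II whose reads cannot be assigned surely, were higher by 0.60 ± 0.08 SE (adjusted p = 0.00846) and 0.59 ± 0.09 SE (adjusted p = 0.0115). They were the 2 calls among 27 heat shock chaperones (7.41%, beside 2.08% over all genes). Further single calls were the stress transcription factor xbp-1 (-0.19 ± 0.04 SE, adjusted p = 0.0303) of 28 genes of the endoplasmic reticulum stress response, the autophagy receptor sqst-1 (-0.32 ± 0.05 SE, adjusted p = 0.0178) of 35 autophagy genes and the troponin gene tnt-3 (0.33 ± 0.05 SE, adjusted p = 0.0155) of 37 muscle genes. In that order, the shares called were 3.57%, 2.86% and 2.70%, beside 2.08% over all genes.

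Called genes lay on all chromosomes, with 85 of 2579 tested genes on chromosome V (3.30%) and 15 of 2233 on chromosome I (0.672%). Of the called genes, 40 formed 17 runs of 2 to 4 neighbours with one direction. One was chca-1, F58G6.3 and F58G6.7 on chromosome IV (9651394 to 9655588), higher by 0.63 ± 0.11 SE, 0.66 ± 0.10 SE and 0.52 ± 0.08 SE (adjusted p = 0.0201, 0.0102 and 0.0154). Another held rol-6, the short non-coding RNA T01B7.11 just before it (1.47 ± 0.25 SE, adjusted p = 0.0213) and mak-1 (0.22 ± 0.04 SE, adjusted p = 0.0178). T01B7.11 had no count in N2. A further 15 called genes, all lower by 0.48 to 0.94 on the log2 scale, have no name in the files and no place in the annotation. Several of them carry nearly the same counts, as WBGene00019308 and WBGene00010489 do, with 262, 230 and 245 counts and 244, 228 and 242 counts in WT, so they may share reads.

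No member was called among 49 genes of sperm, 36 of oocytes and the early embryo, 46 of meiosis and the germline, 49 neuronal genes, 75 cytosolic ribosomal protein genes, 32 proteasome genes and 47 histone genes. At the 2.08% called over all genes, lists of these sizes would hold few calls or none. Of all genes tested, 6768 of 13740 had negative values. Beside that, negative values were found in 33 of 36 oocyte genes, 33 of 46 germline genes, 72 of 75 ribosomal protein genes and 31 of 32 proteasome genes, with medians of -0.06, -0.02, -0.07 and -0.06. Negative values were also found in 40 of 49 sperm genes (median -0.27) and 40 of 47 histone genes (median -0.17), and positive ones in 39 of 49 neuronal genes (median 0.16).

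Both comparisons with N2 share the N2 libraries, and each shares a line with the comparison of 2KR with WT, so their values are given side by side and not as support. At an adjusted p under 0.05, 10.1% of 14361 genes differed between WT and N2 (4.82% higher and 5.31% lower in WT) and 17.1% between 2KR and N2 (8.61% higher and 8.5% lower in 2KR). acdh-1 stood at 0.42 (WT over N2, adjusted p = 0.21) and 1.15 (2KR over N2, adjusted p = 0.0023), and folt-2 at 0.18 (adjusted p = 0.53) and 0.96 (adjusted p = 0.0016). sams-1 was above N2 in both lines, by 0.44 (adjusted p = 7.9e-04) and 0.84 (adjusted p = 4.8e-06), as was nhr-114 by 0.72 and 1.1198 (adjusted p = 7e-04 and 1.6e-05).

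For cpr-5 the values were -0.02 (adjusted p = 0.9) and 0.91 (adjusted p = 3.1e-06), and for dod-3 they were 0.46 (adjusted p = 0.056) and -0.69 (adjusted p = 0.0081). mtl-1 and tts-1 were lower than N2 in 2KR, at -1.22 (adjusted p = 0.0062) and -0.93 (adjusted p = 0.012), with values of -0.28 for both in WT (adjusted p = 0.52 and 0.45). The daf-16 transcript was above N2 in both lines, by 1.36 in WT and 0.59 in 2KR (adjusted p = 8.5e-08 and 1.1e-04). For F41B5.1, clec-52 and rnh-1.3, by contrast, 2KR stood at -0.10, -0.01 and 0.22 over N2, none called, while WT was 0.98, 0.94 and 1.19 above N2 (adjusted p = 0.0015, 0.0091 and 0.0012).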

How the data were processed

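Gene counts came from RNA of whole day 1 adults, made into libraries with a directional kit, per the labels' protocols. The authors deposited whole-number counts per gene, without normalization. The submitters' processing notes name Trimmomatic 0.32, TopHat2 2.1.0 and DESeq2 1.14.1; build, gene models, counter and strand setting were not given in the sources used here. The deposited count columns of the libraries were joined by gene ID. Gene positions and biotypes came from Ensembl 115 (WBcel235), matched by gene ID for 46474 of 47084 genes, and 349 genes without a name kept their ID.

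The 6 libraries of both lines were filtered with filterByExpr and scaled by TMM, and tested with edgeR 4.0.16 (R 4.3.3) by the quasi-likelihood test, with the replicate as a block and Benjamini-Hochberg adjustment over 13740 genes. The filter keeps a gene with enough counts in a single line. CPM are scaled to TMM-adjusted library sizes. N2 CPM and comparisons with N2 came from a fit of 8 libraries, and summed marker levels are scaled to unadjusted totals. Replicate numbers come from the sample titles. The block was the run tag in the names of the deposited tables, which goes with the number in both lines; N2 replicate 2 carries the tag of replicate 3 of the lines and was blocked with it. The numbers were taken to pair the libraries, since deviations from the line means correlated at 0.444, 0.433 and 0.321 within a number. Between numbers they correlated at -0.323 to -0.0896. Subtracting the line means forces values between numbers to be negative on average where those within are positive, so they add no separate evidence. Alternatives used DESeq2 1.42.0, limma 3.58.1, other scalings and filters, and each library or replicate left out in turn. The scripts were tested on simulated data. There, 1 of 148 calls was false with a spread set by gene level, and 17 of 166 with a spread set gene by gene. Of 1.3-fold changes, 44% and 55.1% were recovered. Total counts were 21947014 to 30810301 over the 8 libraries, and replicates of a line differed by more than sampling noise (chi-square per degree of freedom 5.02 to 18.7).

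The comparison, the gene lists and the rule for named genes were chosen with earlier results of these data known. The rule names daf-16 and rol-6, the 15 highest and 15 lowest called genes averaging 2 or more on the log2 CPM scale, up to 4 called members of each list and of each family with 3 or more calls (2 members where none was called), and genes of runs of 3 or more called neighbours. Further genes, and the propionate, vitamin B12, methionine, amino acid and nucleotide sets, were picked after their values were seen, and acdh-1 was taken out of the PMK-1 list after its value was seen. The libraries of a further line, 4KR, were not analysed here because the names in their tables do not match the counts.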

Additional observations from a re-analysis of the deposited data

How the results depend on the processing

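None of the 286 called genes reversed in the alternatives in which it was tested, but the number of calls moved. Without the replicate block, that is without the pairing, 22 genes passed (5 higher, 17 lower), and with the N2 libraries added and no block 35 passed (11 higher, 24 lower). Without a filter on low counts 454 passed (301 higher, 153 lower), and DESeq2 called 185 (116 higher), of which 173 were among the 286. Leaving out a library or a replicate gave 44 to 1124 genes, 22 to 705 higher and 22 to 419 lower. With the block kept, leaving out a single library came close to leaving out its replicate in both lines. In every alternative, 11 of the 286 passed. Of the 286, 264 lost their call without the block, 241 without WT replicate 3, 244 without 2KR replicate 3, 159 without replicate 1, 111 with DESeq2, 31 with N2 libraries and a block, 20 with limma-voom and 1 with other size factors. The cause was not tested. With 3 libraries a line, and each line from 1 array, the lines and any background difference between them cannot be told apart, and genes of few counts or with near-identical copies are the least sure.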
